A study of Avicennia germinans with 18 samples.

Results

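Transcript levels were compared between the stem and the root of the same seedlings of Avicennia germinans, the black mangrove, from the arid of 2 forests. The comparison used 6 of the 18 libraries of the series, the stem and the root of arid seedlings 1, 2 and 3, chosen by their labels and paired by seedling number. Arid stems and arid roots had 3 libraries each. The arid leaves of the same seedlings and the stems, roots and leaves of 3 seedlings from the humid forest were used to place the result. These also had 3 libraries per organ. They entered the fit that called transcripts as well, through its filter and its estimate of the spread. The forests contrasted in freshwater, salt, light and temperature, per the series' design text. All seedlings had germinated and grown in the field, were moved into pots of mangrove soil, and stood shaded and watered for 72 hours before harvest, in both forests alike. Each forest was 1 site with 1 sampling date, and the labels' numbers were read as 1 seedling each. Of 47821 listed transcripts, 40897 had enough reads to be tested. The deposited tables give identifiers without gene names, so no function was assigned and 4 transcripts are given by identifier.

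Roots of black mangroves stand in saline, oxygen-poor mud, take up water against the salt of the soil and keep most of that salt out of the xylem. Stems carry the xylem and phloem between root and leaf, and in Avicennia the wood is laid down by a succession of cambia. Young stems also bear green tissue, so a shoot organ can share transcripts with leaves that a root lacks.

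The 6 libraries held between 7.87 and 18.2 M reads (M for mega), with 14.3 ± 2.35 M in arid stems and 11.7 ± 5.65 M in arid roots (SD, n = 3 each). Levels are in CPM, counts per M reads after scaling of the library totals, and are not corrected for transcript length. The organ labels were checked with transcripts chosen in the humid seedlings alone. A "stem over root" list held 291 transcripts with at least 20 CPM in humid stems, at least 8-fold more than in humid roots and no overlap of the libraries. A "root over stem" list, chosen the other way round, held 437. In arid stems 1, 2 and 3 the stem over root list had median levels of 96.8, 30.001 and 79.9 CPM, against 43.5, 4.18 and 23.7 CPM in arid roots 1, 2 and 3. For the root over stem list the arid stems had medians of 2.25, 8.89 and 2.44 CPM, against 13.3, 27.5 and 11.2 CPM in the arid roots. Within every seedling both lists thus leaned the way their labels say. The 2 organs were less far apart than in the humid seedlings that chose the lists, where the stem over root list had 35.4 to 55.2 CPM in stems and 1.22 to 1.89 CPM in roots.

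**Figure D1:**
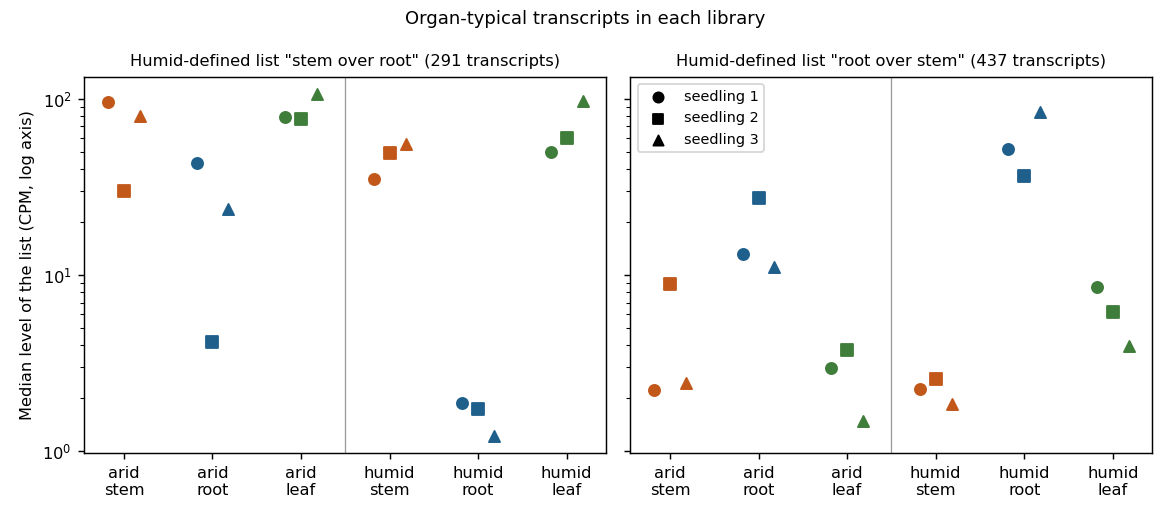
Median level in CPM (log axis) of the transcripts that humid seedlings had 8-fold or more over in stem (left panel, 291) or in root (right panel, 437), for every library of the 6 groups. In seedling order the arid stems lie at 96.8, 30.001 and 79.9 CPM in the left panel, above 43.5, 4.18 and 23.7 CPM in the root of the same seedling, and arid stem 2 stands above the other arid stems in the right panel.

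A pair of libraries was followed further. Arid root 1 had the highest level of stem over root transcripts among the roots, and arid stem 2 the lowest among the arid stems together with the highest level of root over stem transcripts. Arid root 3, at 23.7 CPM for the stem over root list, lay between arid root 1 at 43.5 CPM and arid root 2 at 4.18 CPM. Across the 40897 transcripts the log2 levels of arid stem 2 correlated with the other arid stems at a mean Pearson's r of 0.806, below its mean of 0.831 with the arid roots. Its closest library was the leaf of its own seedling, at 0.878. Arid stems 1 and 3 were each other's closest library at 0.870, and each arid root was closest to another arid root, at 0.907 to 0.914. In bulk libraries, fewer cells of a type and less RNA per cell cannot be told apart, and the part these library differences played in the results below was not tested. Results are given with and without these libraries where they moved.

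Between stem and root of arid seedlings, 1172 of the 40897 tested transcripts (2.87%) were called at an adjusted p under 0.05 by the quasi-likelihood test of edgeR with the seedling as a block. Of these, 518 (1.27% of all tested) were higher and 654 (1.6%) lower in arid stem. Changes were large. The median log2 fold change was 2.86 among the higher transcripts, with quartiles of 1.85 and 4.64, and -2.86 among the lower ones, with quartiles of -4.75 and -1.85. Over all tested transcripts the median was -0.05. At least 8-fold changes were found for 249 of the higher and 302 of the lower transcripts. Transcripts called higher had a median level of 29.3 CPM in arid stems and 4.504 CPM in arid roots. Those called lower had a median of 2.99 CPM in arid stems and 19.6 CPM in arid roots. A fit that ignored the seedlings called 602 (237 higher, 365 lower), and it shared 529 with the 1172 in the same direction. Both of these fits held all 18 libraries. A fit of only the 6 arid stem and root libraries called 404 (241 higher, 163 lower), and it shared 288 with the 1172 in the same direction. A fit of the 9 arid libraries called 129 (86 higher, 43 lower), so higher transcripts led in both fits of arid libraries alone.

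Single libraries moved the count of 1172. It fell to 223 without arid stem 1 and was 2722 without arid stem 2, 109 without arid stem 3, 635 without arid root 1, 157 without arid root 2 and 83 without arid root 3. Lower transcripts outnumbered higher ones in 4 of these 6 fits, while higher ones led without arid stem 1 (154 against 69) and without arid root 1 (348 against 287). With both arid stem 2 and arid root 1 left out it was 1232, 497 higher and 735 lower, of which 482 were among the 1172 in the same direction. Which transcripts passed the threshold therefore depended on the libraries kept.

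**Figure D2:**
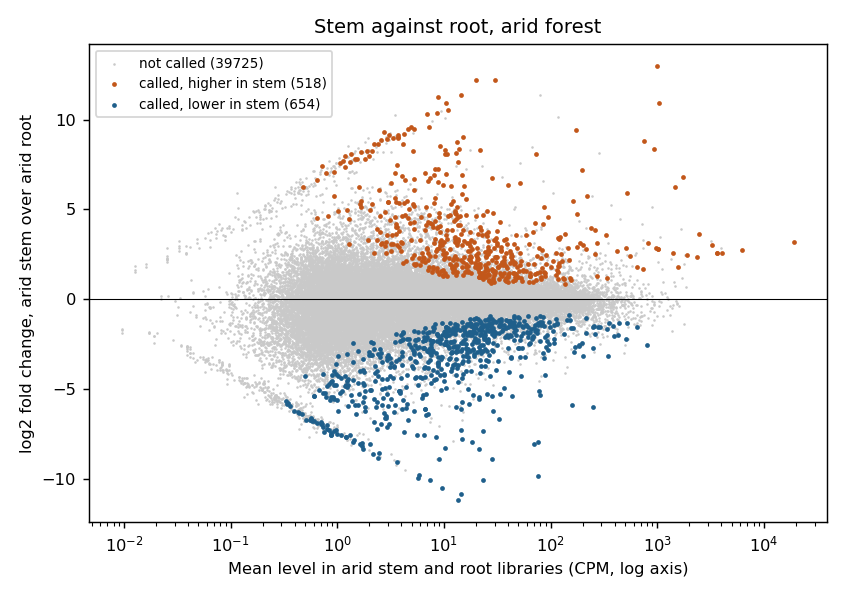
Log2 fold change of arid stem over arid root against the mean level of the 6 libraries in CPM (log axis), 1 point per transcript with reads in these libraries. Orange points are the 518 transcripts called higher and blue points the 654 called lower in stem, and the highest mean level on the plot belongs to a transcript called higher in stem.

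The called transcripts were chosen by a test on these same seedlings, so their values per seedling are a description. Per seedling, the ratio of stem to root was taken after adding 0.1 CPM to both levels. The median log2 ratio of the 518 higher transcripts was 2.22 in seedling 1, 2.73 in seedling 2 and 2.99 in seedling 3. That of the 654 lower ones was -2.88, -2.49 and -2.76 in the same order. All 3 seedlings had the same sign for 496 of the higher transcripts, and 21 of the remaining ones had no read in either organ of seedling 1. All 3 had the same sign for 653 of the lower ones. Over all tested transcripts, the 3 seedlings had one sign for 40.6%, with 7734 higher and 8861 lower in stem. The 3 arid stems lay above all 3 arid roots for 425 of the 518, and below them for 609 of the 654. Of all tested transcripts, 8.47% had the 3 arid stems above and 11.4% had them below the 3 arid roots.

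Called transcripts with no read in 1 of the 2 organs compared were a small part. Leaves were not considered in this count. For 42 of the 518 higher transcripts no read was counted in any arid root, with mean levels from 0.954 to 60.1 CPM in arid stems. For 50 of the 654 lower ones no read was counted in any arid stem, with mean levels from 0.661 to 29.0 CPM in arid roots. A count of 0 allows up to 3 counts, which is 0.217 to 0.293 CPM in the arid stems and 0.174 to 0.372 CPM in the arid roots. These limits cover counting error only. Ranked by mean level in the 6 libraries and split into 4 equal groups, called transcripts made up 0.822% of the lowest group, 1.95% and 4.54% of the next ones and 4.16% of the highest.

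4 transcripts were followed in every library, 2 from each direction. They were taken from the called transcripts with at least 10 reads in each of the 6 libraries and the same sign in all 3 seedlings, of which 311 were higher and 367 lower in stem. In each direction these are the transcript with the largest change and the one with the most reads.

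Among the 311 higher transcripts with that many reads, the largest rise was that of non_cod_Ag_47568, whose prefix the files do not explain. It had 352, 1863 and 8167 CPM in arid stems 1, 2 and 3, against 5.08, 18.8 and 43.2 CPM in arid roots 1, 2 and 3. The ranges were far apart, and stem exceeded root 69.4-fold, 99.1-fold and 189-fold in seedlings 1, 2 and 3. Seedling 1 was lowest and seedling 3 highest in both organs, and the same order held in the arid leaves with 310.5, 802 and 2641 CPM. On the log2 scale stem exceeded root by 6.81 (SE 1.58, edgeR adjusted p = 0.0425). With 1 of the 6 libraries left out the value ran from 6.43 to 7.14, and the adjusted p by edgeR was 0.0423 when arid stem 2 was the one left out and 0.0829 to 0.166 otherwise. It was scarce in humid stems, at 2.67, 23.6 and 25.5 CPM, and in humid roots, at 3.36, 0.579 and 0.914 CPM. Between humid stem and humid root edgeR gave a log2 fold change of 2.15 (SE 1.69) at an adjusted p of 0.475. Humid leaves 1, 2 and 3 had 0.249, 38.8 and 835 CPM, so humid leaf 3 lay above arid leaves 1 and 2.

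The transcript with the most reads, non_cod_Ag_44017, had 24127, 30109.6 and 47501 CPM in arid stems 1, 2 and 3, against 2315, 2632 and 7825 CPM in arid roots 1, 2 and 3. It thus took 2.33%, 2.57% and 3.73% of all reads of the arid stem libraries, and 0.237%, 0.249% and 0.830% of those of the arid roots. No stem overlapped with a root, and stem exceeded root 10.4-fold, 11.4-fold and 6.07-fold in the 3 seedlings. Stem exceeded root by 3.16 on the log2 scale (SE 0.48, edgeR adjusted p = 0.0136), and it stayed called with any 1 of the 6 libraries left out. It was not called by edgeR without both libraries of seedling 3 (adjusted p = 0.0683), in a fit of the 6 arid stem and root libraries (adjusted p = 0.0633) or in one of the 9 arid libraries (adjusted p = 0.0571). Arid leaves had 1681, 4851 and 7121 CPM, each below the stem of the same seedling. Humid stems had 5476 ± 3787 CPM and humid roots 3444 ± 953 CPM (SD, n = 3 each), which did not differ beyond the spread (log2 fold change 0.46, SE 0.45, edgeR adjusted p = 0.578). The difference between the 2 forests in this fold change was 2.70 on the log2 scale (SE 0.64) and missed the threshold, with an edgeR adjusted p of 0.0845.

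Among the 367 lower transcripts with at least 10 reads in each library, non_cod_Ag_18900 changed most. It had 7.53, 3.52 and 10.7 CPM in arid stems 1, 2 and 3, against 129.9, 1008 and 333 CPM in arid roots 1, 2 and 3. All stems lay far below all roots, and arid leaves were close to the stems with 18.6, 5.59 and 9.19 CPM. By edgeR the change was -6.01 on the log2 scale (SE 0.98, adjusted p = 0.0158). With 1 of the 6 libraries left out the change ran from -6.87 without arid root 1 to -4.62 without arid root 2. The adjusted p lay between 0.00853 and 0.0533, and it passed 0.05 without arid stem 1, arid stem 3 or arid root 3. Humid seedlings had the same direction, with 27.2 ± 12.9 CPM in stems and 718 ± 381 CPM in roots (SD, n = 3 each, log2 fold change -4.76, SE 0.89, edgeR adjusted p = 0.00646).

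Of the same 367 transcripts, Ag_46481 had the most reads in root. It had 42.4, 416 and 230.02 CPM in arid stems 1, 2 and 3, against 693, 2859 and 543 CPM in arid roots 1, 2 and 3. The ranges did not overlap, but arid stem 2 came near arid root 3, and the ratio of stem to root was 0.0612, 0.146 and 0.424 in seedlings 1, 2 and 3. By edgeR the change was -2.58 on the log2 scale (SE 0.58, adjusted p = 0.0389). With 1 of the 6 libraries left out it lay between -3.07 and -1.998, and the adjusted p passed 0.05 except without arid stem 2, reaching 0.137. In the humid forest stems had 599 ± 86.1 CPM and roots 1738 ± 417 CPM (SD, n = 3 each), and edgeR gave a change of -1.54 (SE 0.55) at an adjusted p of 0.0963.

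**Figure D3:**
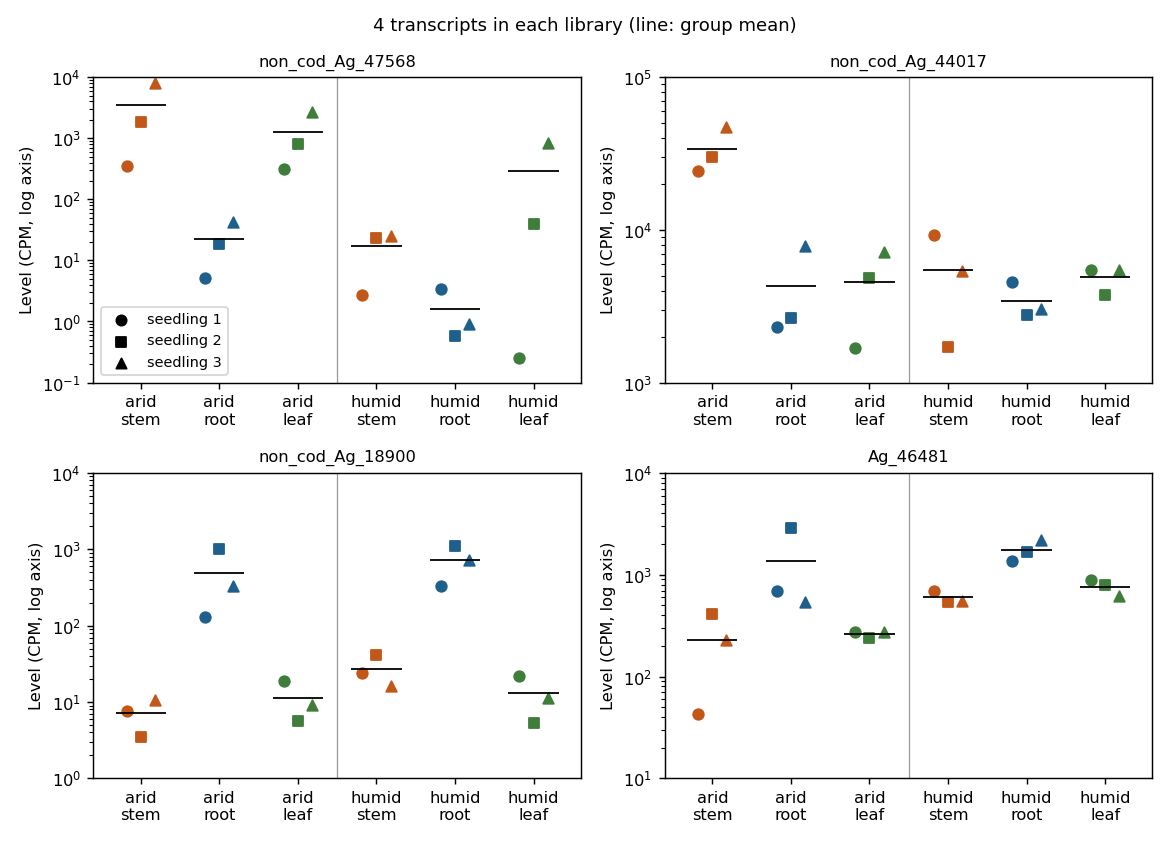
Level in CPM (log axes, whole decades) of 4 transcripts in every library, by forest and organ, with 1 symbol per seedling and a line at the group mean. In the upper row all arid stems lie above all arid roots, at 352 to 8167 against 5.08 to 43.2 CPM for non_cod_Ag_47568 and at 24127 to 47501 against 2315 to 7825 CPM for non_cod_Ag_44017, and in the lower row all arid stems lie below all arid roots.

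Leaf levels showed whether stem and leaf were alike. Leaf libraries are on neither side of the contrast, although the fit used them for the spread and the seedling terms. The 518 transcripts called higher in stem had a median of 21.5 CPM in arid leaves. Arid leaves were nearer to the stem than to the root on the log2 scale for 365 of the 518 (70.5%) and for 390 of the 654 called lower (59.6%), against 52.1% of all tested transcripts. The higher transcripts were split by leaf level into those that leaf shared with stem, with no upper limit for leaf, and those that peaked in stem. For 175 of the 518 the arid leaf mean lay above both stem and root. For 334 the arid leaf mean was at least 50% of the arid stem mean, with medians of 29.6 CPM in stem, 5.59 CPM in root and 34.2 CPM in leaf. For 107 it was at most 25%, with medians of 25.04 CPM in stem, 1.18 CPM in root and 2.55 CPM in leaf. The other 77 lay between.

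Leaf-shared and stem-peaked transcripts also differed in the libraries of the humid forest. These did not enter the split by leaf level, but they entered the fit that called the transcripts. Of the 334 leaf-shared transcripts, 172 (51.5%) were called higher in humid stem than in humid root as well, with a median log2 fold change there of 1.83 (1.79 with transcripts at 0 reads in an organ set to the bound that 3 counts allow). Of the 107 stem-peaked ones, 9 (8.41%) were called so, with a median of 0.32 (0.33 with the bound). Over all tested transcripts 5.11% were called higher in humid stem, with a median of 0.12. The prefix non_cod was carried by 49 of the 107 (45.8%), by 48 of the 334 (14.4%) and by 32.5% of all tested transcripts. Among all 518 called higher it was carried by 120 (23.2%), and among the 654 called lower by 114 (17.4%), both below the share of all tested.

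Among the transcripts called higher, the stem-peaked group took the largest part of the reads of arid stems. Its 107 transcripts took 5.56%, 7.21% and 8.99% of the reads in arid stems 1, 2 and 3, against 0.692%, 0.776% and 2.06% in arid roots 1, 2 and 3. Its member non_cod_Ag_44017 alone took 2.33%, 2.57% and 3.73% of all reads of arid stems 1, 2 and 3. The 334 leaf-shared transcripts took 2.19%, 1.61% and 2.42% in the stems and 0.605%, 0.323% and 0.489% in the roots. The 77 transcripts in between took 1.92%, 2.19% and 3.53% in the stems and 0.362%, 0.401% and 0.510% in the roots. Across all 518 transcripts called higher, the 10 with the highest arid stem levels, 6 of them with the prefix non_cod, together took 5.43%, 6.55% and 9.66% of reads in arid stems, against 0.726%, 0.788% and 2.10% in arid roots. In every other library of the series they took between 0.568% and 2.64%. The 10 were picked by their arid stem levels among transcripts called higher there, so a larger share in arid stems follows in part from the choice. None of the 10 was called by edgeR or by DESeq2 between humid stem and humid root, and 0 had an unadjusted edgeR p under 0.05, with log2 fold changes from -0.39 to 2.15, and 2 of them passed the test of the difference between forests.

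**Figure D4:**
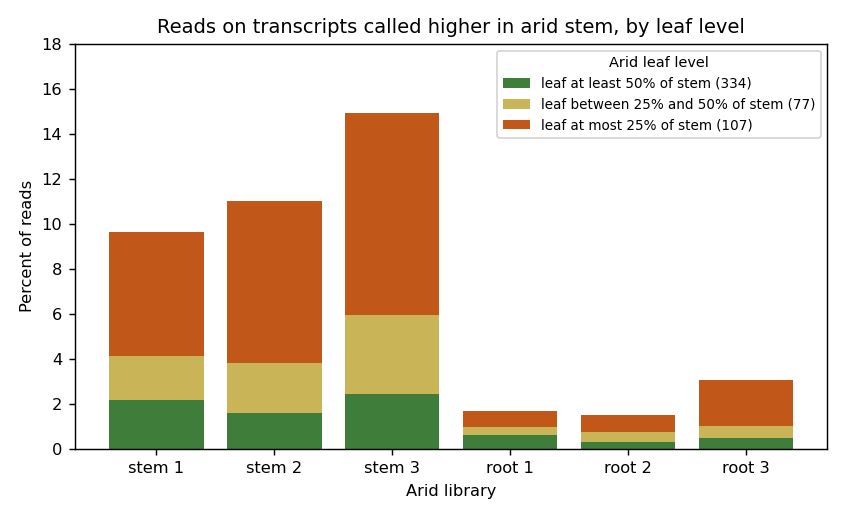
Percent of the tested reads of each arid library that fell on the 518 transcripts called higher in arid stem, stacked by the level of arid leaves relative to arid stems. The orange part, 107 transcripts at 25% of the stem level or less in leaves, makes up 5.56%, 7.21% and 8.99% of reads in stems 1 to 3 and 0.692%, 0.776% and 2.06% in roots 1 to 3.

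Root-high transcripts divided likewise. Of the 654 called lower in stem, 270 had an arid leaf mean of at most 25% of the arid root mean, with medians of 1.05 CPM in stem, 17.3 CPM in root and 0.942 CPM in leaf. Another 247 had at least 50% of the root level in leaf, with medians of 6.32 CPM in stem, 19.6 CPM in root and 15.8 CPM in leaf. Of the 270 root-restricted transcripts, 146 (54.1%) were also called lower in humid stem than in humid root, with a median log2 fold change there of -2.36. Of the 247 transcripts that stem lacked relative to both other organs, 36 (14.6%) were, with a median of -0.19 (-0.18 with the bound). Over all tested transcripts 4.32% were called lower in humid stem. Transcripts that set the arid stem apart from root and leaf were thus called less often in humid seedlings than leaf-shared or root-restricted ones. This held in both directions and was not tested as a difference between groups of transcripts. The groups were split by arid levels that also entered the calls, and their humid levels differed. Medians in humid stem and root were 4.35 and 2.64 CPM for stem-peaked and 12.2 and 3.07 CPM for leaf-shared transcripts. They were 13.2 and 17.8 CPM for the 247 and 3.78 and 21.9 CPM for the 270.

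The overall make-up of the arid stem libraries was more uneven than that of the roots. The 100 most abundant transcripts of each library took 16.9%, 19.1% and 22.5% of reads in arid stems 1, 2 and 3, against 9.81%, 11.8% and 10.9% in arid roots 1, 2 and 3. Transcripts with the prefix non_cod took 14.4%, 12.4% and 17.0% in the stems and 8.29%, 8.96% and 9.17% in the roots. Most members did not share this rise. The 13289 tested ones had a median log2 fold change of -0.06, with 0.903% called higher (1.27% of all tested) and 0.858% lower (1.6%). Of the reads, non_cod_Ag_44017 alone took 2.33% to 3.73% in the stems and 0.237% to 0.830% in the roots. At least 1 CPM was reached by 30599, 30685 and 28614 transcripts in the stems and by 31897, 30890 and 31967 in the roots. The scaling factors were 0.981, 0.856 and 0.787 for the stems and 1.03, 0.948 and 1.06 for the roots. Each of these 4 measures had the same sign in all 3 seedlings. The exact two-sided permutation p over seedling pairs was 0.25 for each, which is the smallest that 3 pairs allow, and 0.25 after adjustment over the 4. Without seedling 3 the mean difference of stem minus root shrank to -751.5 transcripts at 1 CPM, against -1619 with all seedlings, and to -0.0692 for the scaling factor, against -0.138.

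The same contrast in humid seedlings called 3858 transcripts by edgeR (9.43%), 2091 higher (5.11%) and 1767 lower (4.32%) in humid stem. The humid libraries were shallower, at 6.11 to 12.9 M reads in stems and 3.07 to 9.05 M in roots. The humid count was lower without any one of its 6 libraries, from 1102 without humid root 3 to 3032 without humid root 1, and was 1586, 2102 and 1429 without humid stem 1, 2 or 3 and 2205 without humid root 2. The arid and humid contrasts shared no library, although their spread was estimated in 1 fit. Of the 518 transcripts called higher in arid stem, 207 (40.0%) were called higher and 2 were called lower in humid stem. The 207 were 9.90% of the 2091 called higher in humid stem. Of the 654 called lower in arid stem, 215 (32.9%) were called lower and 5 higher in humid stem, and the 215 were 12.2% of the 1767.

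Fold changes seen in the arid forest were smaller in the humid one. The 518 had a median log2 fold change of 1.41 there (1.33 with the bound), against 2.86 in the arid forest, and 441 had a positive value. The 654 had a median of -0.87 there, against -2.86, and 467 had a negative value. Transcripts chosen for passing a threshold in a set of libraries tend to show smaller values in other libraries, and the reverse held too. The 2091 called higher in humid stem had a median of 0.99 in the arid forest and 2.66 (2.63 with the bound) in the humid forest. Across all tested transcripts the 2 sets of fold changes correlated with Pearson's r of 0.366 and Spearman's rho of 0.281. These values describe transcripts, which are no replicates of one another.

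**Figure D5:**
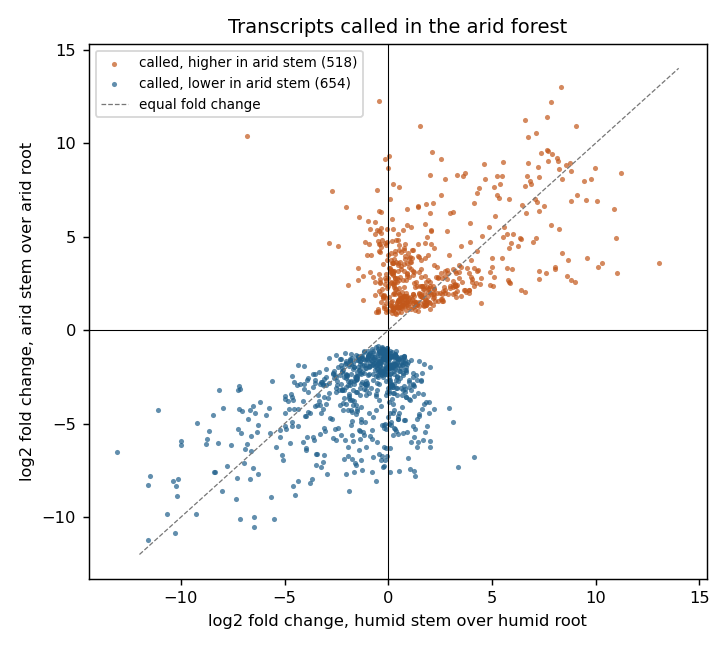
Log2 fold change of stem over root in the arid forest (vertical axis) against that in the humid forest (horizontal axis) for the transcripts called in the arid forest, orange for the 518 higher and blue for the 654 lower in arid stem. The dashed line marks equal fold changes, and 441 of the 518 orange points lie right of the vertical zero line and 467 of the 654 blue points left of it.

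Arid seedlings shared less of the stem and root difference with each other than humid ones did. Among 20458 transcripts averaging 5 CPM or more in the arid libraries compared, the log2 ratios of stem to root correlated with Pearson's r of 0.378 between seedlings 1 and 2, 0.591 between 1 and 3 and 0.519 between 2 and 3. Among 20479 transcripts chosen likewise in humid seedlings r was 0.725, 0.801 and 0.784 for the same pairs. These are correlations across transcripts, whose ratios share library depth, and the difference between forests was not tested.

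How the organ lists from humid seedlings behaved in arid seedlings was counted with the arid contrast. Of the 291 stem over root transcripts, 38 (13.1%, against 1.27% of all tested) were called higher in arid stem by edgeR, and 270 had a positive fold change. The number called lower was 0 by edgeR and 1 by DESeq2, and 4 were lower at an unadjusted edgeR p under 0.05. Their median was 1.74 on the log2 scale, against -0.05 for all tested transcripts. The per-seedling medians were 1.06, 2.73 and 1.87, the lowest being that of seedling 1, whose root held most of these transcripts. The 3 arid stems lay above the 3 arid roots for 61 of the 291 (8.47% of all tested did so). Without arid root 1 the count of members called higher was 52 with a median of 2.42, against 348 of 43303 tested. Without arid stem 2 it was 45 with a median of 1.81, against 840 of 42567 tested. Without both it was 68 with a median of 2.65, against 497 of 42813 tested.

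Of the 437 root over stem transcripts, 82 (18.8%, against 1.6% of all tested) were called lower in arid stem by edgeR. The number called higher was 0 by edgeR and 9 by DESeq2, and 11 were higher at an unadjusted edgeR p under 0.05. The median was -1.92 (-1.94 with the bound), and per seedling it was -2.58, -1.15 and -2.10, the smallest size being that of seedling 2, whose stem held most of these transcripts. The 3 arid stems lay below the 3 arid roots for 152 of them (11.4% of all tested did so). Without arid stem 2, 126 were called lower with a median of -2.59 and 5 were called higher, against 1882 lower and 840 higher of 42567 tested. Without arid root 1, 55 were called lower, against 287 of 43303 tested. Without both, 69 were called lower, against 735 of 42813 tested. The 3450 transcripts at 20 CPM or more in both humid organs, with neither more than 25% above the other, had a median of -0.02 in the arid contrast. Of these, 27 (0.783%, against 1.27% of all tested) were called higher and 55 (1.59%, against 1.6%) lower.

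Stem over root transcripts that humid leaves also held, at 50% of the humid stem level or more, numbered 228. Their medians were 117, 33.7 and 95.5 CPM in arid stems 1, 2 and 3, against 63.8, 4.15 and 27.7 CPM in arid roots, and 28 (12.3%, against 1.27% of all tested) were called higher. Those that humid leaves lacked, at 25% of the stem level or less, numbered 36. They had medians of 40.4, 14.8 and 36.8 CPM in arid stems and 17.5, 5.45 and 13.5 CPM in arid roots, and 3 (8.33%) were called higher. In arid roots 1 and 3 both kinds stood above the levels of arid root 2.

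Whether the stem and root difference itself differed between the forests was tested in the same edgeR fit. It did for 77 transcripts (0.188%). For 26 (0.0636%) the log2 fold change of stem over root was higher and for 51 (0.125%) it was lower in the arid than in the humid forest, at edgeR adjusted p-values from 0.0169 to 0.0488. The 51 had a median of 16.9 CPM in arid stems, 29.3 CPM in arid roots, 43.4 CPM in humid stems and 3.29 CPM in humid roots. Of these, 34 were called higher in humid stem and not called in arid stem, and 10 were called lower in arid stem and not called in humid stem. Opposite calls, lower in arid and higher in humid stem, were found for 5. Among the 51, the highest arid root level was in arid root 1 for 33, in arid root 3 for 16 and in arid root 2 for 2. The same count over all tested transcripts is not given here.

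The 26 had a median of 34.9 CPM in arid stems, 19.0 CPM in arid roots, 2.77 CPM in humid stems and 58.4 CPM in humid roots. By library, the medians were 27.7, 60.3 and 9.57 CPM in arid stems 1, 2 and 3, so arid stem 2 was the highest. Called lower in humid stem and not called in arid stem were 18 of them, called higher in arid stem alone 6, and called in opposite directions 2. Of the 10 and 6 transcripts called in the arid forest alone, the 10 had a median log2 fold change of -2.44 in the arid forest, against 0.94 in the humid one. The 6 had 3.06 in the arid forest, against -0.51 in the humid one.

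Single libraries moved these 77 calls as well. A fit that ignored the seedlings called 28 (2 higher, 26 lower), of which 21 were among the 77. The count was 1040 without arid stem 2 and 373 without arid root 2, and all 77 were among each. With both arid stem 2 and arid root 1 left out it was 247, of which 45 were among the 77. Leaving out humid root 1 gave 17 calls, and leaving out humid root 2 or arid root 3 gave 5. Leaving out arid stem 1, arid stem 3 or humid stem 2 gave 3 each, and leaving out humid stem 3 gave 2. Leaving out humid stem 1, humid root 3 or arid root 1 ended all calls by edgeR, with 5626, 5389 and 6033 transcripts at an unadjusted p under 0.05. No other tool was run on those fits.

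A small set of stem and root differences stayed called by edgeR whichever one of the 6 arid libraries was left out. It held 20 transcripts higher and 19 lower in arid stem. The 20 had median levels of 244 CPM in arid stems, 8.01 CPM in arid roots and 52.0 CPM in arid leaves, and a median log2 fold change of 3.34. Of these, 9 carried the prefix non_cod, against 32.5% of all tested transcripts, and 9 were also called higher in humid stem, against 5.11% of all tested, where their median level was 35.1 CPM against 2.92 CPM in humid roots. The 19 had median levels of 0.984 CPM in arid stems, 30.5 CPM in arid roots and 1.85 CPM in arid leaves, and a median log2 fold change of -5.71. Of these, 3 carried the prefix non_cod, and 14 were also called lower in humid stem, against 4.32% of all tested. Their medians were 2.75 CPM in humid stems and 48.6 CPM in humid roots. Both sets were picked for passing in each of these fits, so their size is a description. Without both libraries of arid seedling 3, edgeR called only 15 transcripts in all (4 higher, 11 lower), so most of the 20 were not called there.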

How the data were processed

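The authors deposited raw counts of uniquely mapped reads for each transcript, as a joint table and as single files that hold equal values. Per the submitters' processing notes, Bowtie 0.12.2 and edgeR were used, with no step given. For the reference transcriptome and the counting program, nothing is given in the sources used here, and reads shared by near copies were not assessed. Libraries were made from 0.5 µg of total RNA with a TruSeq kit and sequenced as read pairs, per the labels. The labels list 3 sets of 6 library names with the same barcodes. If each set was 1 organ, pool and organ cannot be told apart.

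Counts entered edgeR 4.0.16 (quasi-likelihood test, R 4.3.3) after a filter by group (minimum count of 10, total of 15) and TMM scaling (trimmed mean of M-values). All 18 libraries entered 1 fit with a mean per group of forest and organ and a term per seedling, with 8 residual degrees of freedom and a biological coefficient of variation of 50.1%. SEs are the fold change divided by the root of the F statistic. P-values were adjusted over all tested transcripts by the Benjamini-Hochberg method. The pairing comes from the design text, which describes organs of the same seedlings. Deviations from the group means of stem and root correlated at 0.277, 0.340 and 0.146 within arid seedlings 1, 2 and 3, and at -0.314 to 0.034 between different ones. Deviations in a group of 3 sum to 0, so positive values within seedlings by themselves pull those between seedlings below 0. The procedure was tested on simulated data. Alternatives were fits without the block, with DESeq2 1.42.0, with other scaling, without the filter, on fewer libraries, and without single libraries or seedlings. Permutation tests used scipy 1.17.1 and plots matplotlib 3.10.9. The comparison, lists, naming rule and alternatives were chosen with earlier results of these data known.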

Additional observations from a re-analysis of the deposited data

Results flagged for a closer look

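The stem and root difference itself differed between the forests by the edgeR test of the difference for 77 transcripts. The log2 fold change of stem over root was higher in the arid forest for 26 of them and lower for 51. The number of transcripts with at least 1 CPM differed by a mean of -1619 between arid stem and arid root (lower in stem in 3 of 3 arid seedlings), and by 3037 between humid stem and humid root (higher in stem in 3 of 3 humid seedlings). The scaling factor differed by a mean of -0.138 between arid stem and arid root and by 0.140 between humid stem and humid root, again with one sign in each forest. These last differences between forests were not tested.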

How the results depend on the processing

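In the arid contrast DESeq2 called 5571 (2498 higher, 3073 lower, including 1151 of the 1172) and the fit without the replicate block 602. The fit of the 6 arid stem and root libraries called 404 (241 higher, 163 lower) and that of the 9 arid libraries 129 (86 higher, 43 lower). Higher transcripts thus led in both fits of arid libraries alone. Leaving out 1 library gave 83 to 2722, and leaving out stem and root of 1 seedling gave 15 to 1918, the lowest without seedling 3. Other scaling and no filter gave 1085 to 1344. Leaving out arid stem 2 and arid root 1 together, and the list counts without either, were chosen after the data were seen. In the humid contrast DESeq2 called 7129, and leaving out 1 library gave 1102 to 3032. For the difference between forests DESeq2 called 2979, the fit without the replicate block 28, upper quartile scaling 124, leaving out 1 library 0 to 1040, and leaving out arid stem 2 and arid root 1 247.

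Of the stem over root list, the percent called higher was 13.1%. It was 3.09% without the replicate block, 23.4% without arid stem 2 and arid root 1 together, and 0 to 17.9% without arid stem 2, arid root 1 or 1 seedling, the omissions run for both lists. The 0 is the edgeR count without seedling 3, where 110 of 291 had an unadjusted p under 0.05 in that direction and DESeq2 was not run. Of the root over stem list, 18.8% were called lower, 10.8% without the replicate block and 1.14% to 28.8% in those omissions. Counts over all tested transcripts moved in the same fits, as given above. No composition measure changed sign. The 4 named transcripts kept their sign under every alternative, and the seedling block changed the calls of non_cod_Ag_47568 (edgeR adjusted p = 0.068 without it) and Ag_46481 (0.061). Depth limits transcripts near 0 reads. The cause of these shifts was not tested.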
